A study of Mus musculus with 24 samples.

Results

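Of 27 measured genes of cholesterol synthesis and its regulation, 7 were lower in the liver of mice treated with the Keap1-specific siRNA siKeap1-1 and 10 with siKeap1-2, and within each treated group the mice lay far apart, for several enzymes with some near the control level and others below every control mouse. The gene set consists of 28 listed genes: the enzymes of the mevalonate and sterol pathways, the SREBP transcription factors with their regulators, and genes of sterol uptake and transport. They were listed by name and role, with earlier results of these data known. Of the 28, 27 had a probe set that the platform annotation assigns to a single gene, among 18193 such genes in all, and each was represented by its brightest probe set over the 24 arrays. Acat2, the cytosolic thiolase that opens the pathway, had no such probe set and has no value here.

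Male C57BL6/J mice, 8 weeks old at the start, received siKeap1-1, siKeap1-2 or siControl, a scrambled siRNA without a target, once weekly at 1 mg/kg for 7 weeks (n = 8 arrays per group, 1 mouse each). All 3 groups were on a Western diet of high-fat food with 6% sucrose in the water, and all 3 siRNAs were chemically modified and given in lipid nanoparticles, which deliver mainly to hepatocytes. Both Keap1 siRNAs lower Keap1, the protein that marks the transcription factor Nrf2 for degradation. In the methods, the 8 livers of each group come from 4 fed mice and 4 that were fasted. The array labels do not say which mice were fasted, so the feeding state could not be used, and its part in any result below was not tested.

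Cholesterol is built in hepatocytes from acetyl-CoA through mevalonate, the isoprenoid diphosphates, squalene and lanosterol. The transcription factor SREBP2, product of Srebf2, switches on almost every enzyme of this chain. SREBP precursors are held in the endoplasmic reticulum by Scap and the Insig proteins when sterols are plentiful and are released to the nucleus when sterols fall. SREBP1c, a product of Srebf1, serves mainly fatty acid synthesis and is known for its response to feeding and insulin in liver.

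RNA of whole liver was hybridised to Affymetrix mouse arrays, and the values are log2 signals, so a difference of 1 is a doubling. Median signals lay between 5.84 and 5.96 over all 24 arrays. Keap1 gave 7.21 to 7.93 with siKeap1-1, 8.03 to 8.59 with siKeap1-2 and 9.33 to 10.03 with siControl, with no overlap between the 3 groups. Markers of hepatocytes (Alb, Ttr, Apoa1, Cps1 and Cyp2e1, averaged per array) were at 14.66 to 14.78 with siKeap1-1, 14.67 to 14.76 with siKeap1-2 and 14.72 to 14.81 with siControl. In whole liver, fewer cells of a type and less RNA per cell cannot be told apart. Among 7 markers of Kupffer cells and macrophages, 2 were lower and none higher with siKeap1-1, while 1 was lower and 1 higher with siKeap1-2. The averages of those 7 markers overlapped between the groups, at 8.93 to 10.15, 9.15 to 10.48 and 9.37 to 10.43 in siKeap1-1, siKeap1-2 and siControl arrays, and the part of such cells in the results was not tested. Of the markers of endothelial, stellate, bile duct, T and B cells, Sox9 was higher with both siRNAs and Cd4 lower with siKeap1-1. The 4 measured bile duct markers, Sox9 among them, did not move as 1. With siKeap1-2 their median difference was -0.35, with 3 below 0 and 2 lower at an unadjusted p under 0.05 in limma. With siKeap1-1 the median was 0.10, with 2 below 0.

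Differences between groups were tested with limma over all genes, and a gene was called lower or higher where its Benjamini-Hochberg adjusted p was under 0.05. With siKeap1-1, 7 of the 27 measured genes were lower (Pmvk, Fdft1, Lss, Msmo1, Sc5d, Scap and Stard4) and 0 were higher, against 4.84% of all genes lower and 4.96% higher. With siKeap1-2, 10 were lower (Mvd, Idi1, Fdps, Fdft1, Sqle, Lss, Cyp51, Msmo1, Hsd17b7 and Stard4) and 0 higher, against 4.02% and 2.97% of all genes. At an unadjusted p under 0.05, 20 and 19 of the 27 were lower with siKeap1-1 and siKeap1-2 and 0 higher with either, against 12% and 12.7% of all genes lower and 12.5% and 9.24% higher. Their median log2 difference from siControl was -0.54 with siKeap1-1 and -0.53 with siKeap1-2, where the median of all genes was 0.01 and -0.01. Both comparisons use the same 8 siControl arrays, so that their likeness is not independent evidence.

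The control probe set for the middle of 18S ribosomal RNA moved with the groups. It gave 10.17 to 11.43 with siKeap1-1, 10.45 to 11.12 with siKeap1-2 and 8.86 to 10.77 with siControl, where replicates 1 to 3 were high and replicates 4 to 8 low. Within siKeap1-1 the split ran the other way, with replicates 1 to 3 at 10.44 or below and replicates 4 to 8 at 11.17 or above. With this signal as a covariate, 0 of the 27 genes were called with siKeap1-1 or siKeap1-2 in limma, while 527 and 220 of all genes were, against 1784 and 1272 without it. At an unadjusted p under 0.05, 10 of the 27 were lower with siKeap1-1 and 10 with siKeap1-2, against 5.4% and 4.34% of all genes in this fit, and 1 (Ggps1) was higher with siKeap1-1. The median difference of the 27 was then -0.42 with siKeap1-1 and -0.34 with siKeap1-2. Against siControl replicates 1 to 3 alone, 0 of the 27 were called with either siRNA, while 625 and 272 of all genes were. At an unadjusted p under 0.05, 8 of the 27 were lower with siKeap1-1 and 11 with siKeap1-2, against 4.87% and 4.28% of all genes, 1 (Ggps1) was higher with siKeap1-1, and the medians were -0.55 and -0.51.

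**Figure D1:**
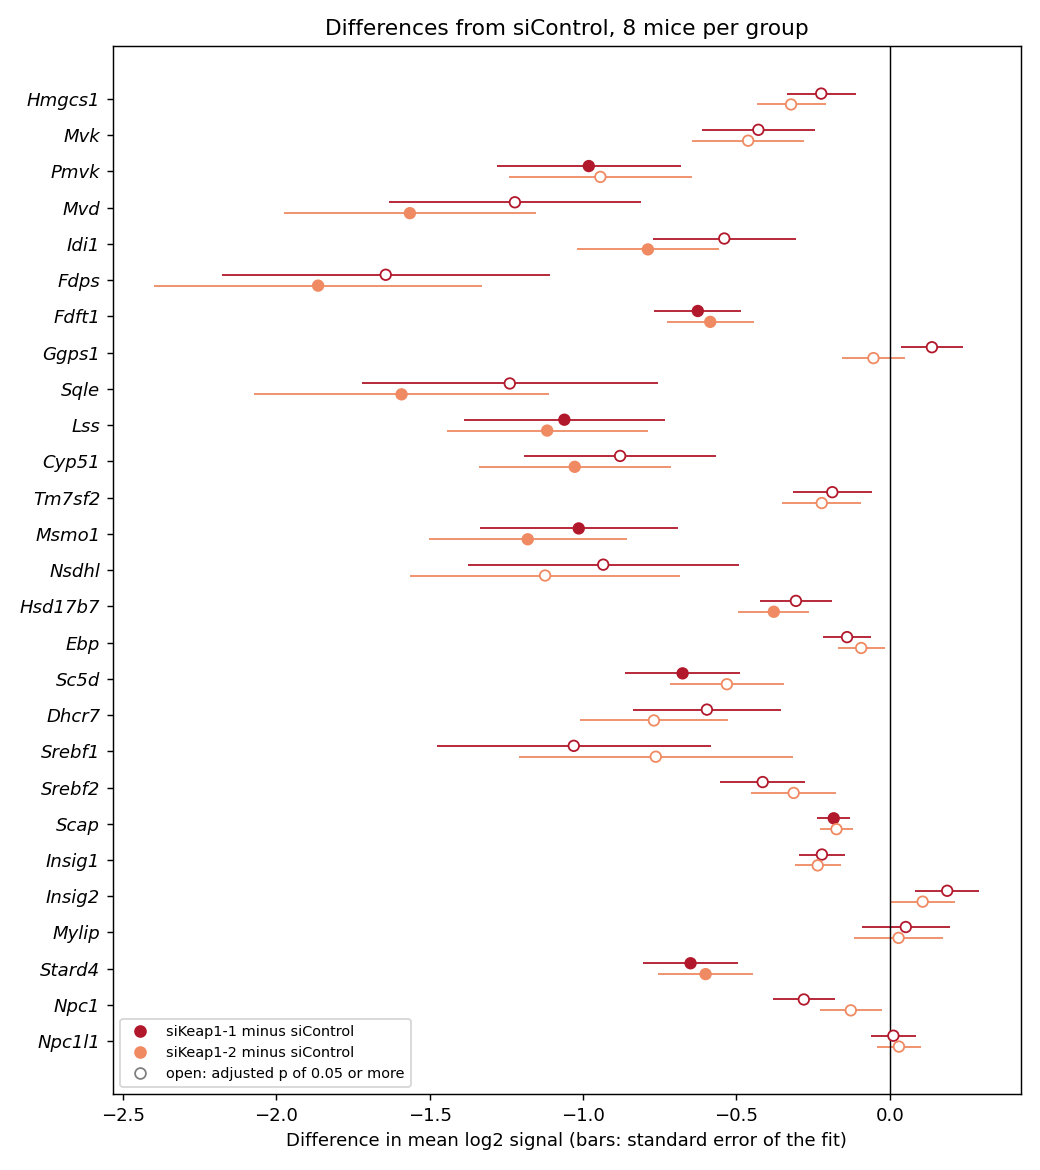
Difference in mean log2 signal of the 27 measured genes (rows, in pathway order) between siKeap1-1 (dark red) or siKeap1-2 (orange) and siControl, with the standard error of the fit as bars and filled points for an adjusted p under 0.05. The points lie left of 0 for all but 4 genes with siKeap1-1 and all but 3 with siKeap1-2, and reach -1.86 for Fdps with siKeap1-2.

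The mevalonate steps come first. Hmgcs1, HMG-CoA synthase, gave one of the brightest signals on the arrays, with 14.12 to 14.72 in siKeap1-1 livers, 13.86 to 14.74 in siKeap1-2 livers and 14.48 to 14.77 in siControl livers, and was not called (-0.22, adjusted p = 0.223 in limma, and -0.32, adjusted p = 0.0837). Its 4 other probe sets were further apart, at -0.51 to -0.76 with siKeap1-1 and -0.71 to -1.03 with siKeap1-2, and none passed the test over all probe sets. The group that follows phosphorylates and decarboxylates mevalonate.

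Mvk, mevalonate kinase, had a lowest, median and highest array of 8.04, 8.77 and 9.31 with siKeap1-1, of 8.36, 8.64 and 9.32 with siKeap1-2, against 8.73, 9.12 and 9.87 with siControl. Of the siKeap1-1 arrays 4 of 8 and of the siKeap1-2 arrays 5 of 8 were below every control array, but neither difference passed the test in limma (-0.43, SE 0.18, adjusted p = 0.145 with siKeap1-1 and -0.46, SE 0.18, adjusted p = 0.131 with siKeap1-2). A dimmer second Mvk probe set gave -0.10 with siKeap1-1 and -0.08 with siKeap1-2. Pmvk, phosphomevalonate kinase, lay at 10.12, 11.02 and 11.78 with siKeap1-1, at 10.08, 11.13 and 12.16 with siKeap1-2, and at 11.56, 12.00 and 12.55 with siControl. It fell with siKeap1-1 to 50.7% of the siControl mean (log2 -0.98, SE 0.30, adjusted p = 0.037 in limma), and 5 of 8 arrays were below every control array. With siKeap1-2 the difference was of like size but missed the threshold (-0.94, SE 0.30, adjusted p = 0.0559).

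Mvd, the decarboxylase that yields the first isoprenoid unit, showed signals of 7.66, 9.12 and 10.36 with siKeap1-1, of 6.75, 8.73 and 10.04 with siKeap1-2, against 9.64, 10.14 and 11.13 with siControl. All but 1 of the siKeap1-2 arrays were below the lowest control. The gene fell to 33.8% with siKeap1-2 (-1.56, SE 0.41, adjusted p = 0.0207 in limma) and stood at 42.9% with siKeap1-1, where the test was missed (-1.22, SE 0.41, adjusted p = 0.0587).

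Idi1, which isomerises that isoprenoid unit, gave 11.93, 12.77 and 13.12 with siKeap1-1, 10.99, 12.49 and 13.23 with siKeap1-2, and 12.79, 13.20 and 13.47 with siControl. Only the siKeap1-2 difference was called in limma (-0.79, SE 0.23, adjusted p = 0.0391), against -0.54 (SE 0.23, adjusted p = 0.147) with siKeap1-1. A second probe set showed -1.09 and -1.34.

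Fdps, farnesyl diphosphate synthase, had the largest mean difference of the 27 genes with either siRNA. It measured 8.57, 10.53 and 11.82 with siKeap1-1, 7.95, 10.37 and 11.90 with siKeap1-2, and 11.72, 12.11 and 12.68 with siControl. The treated arrays spanned a 9.50-fold range with siKeap1-1 and a 15.4-fold range with siKeap1-2, while the control arrays spanned 1.95-fold, and 7 and 6 treated arrays were below every control. Its mean fell to 27.5% of siControl with siKeap1-2 (-1.86, SE 0.53, adjusted p = 0.0342 in limma) and stood at 32.0% with siKeap1-1 (-1.64, SE 0.53, adjusted p = 0.0509). A dim second Fdps probe set, at a mean of 3.61, gave 0.03 with siKeap1-1 and -0.01 with siKeap1-2. Ggps1, which draws farnesyl diphosphate towards protein prenylation, did not share the lower Fdps means. It had differences of 0.14 (adjusted p = 0.442 in limma) and -0.05 (adjusted p = 0.811) and overlapping arrays in all groups.

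Squalene synthase, Fdft1, is the first enzyme committed to sterols and was one of 4 genes called with both siRNAs. Its arrays gave 12.34, 12.66 and 13.19 with siKeap1-1, 12.35, 12.81 and 13.35 with siKeap1-2, and 13.07, 13.45 and 13.69 with siControl. It fell by 0.63 with siKeap1-1 (SE 0.14, adjusted p = 0.00585 in limma) and by 0.58 with siKeap1-2 (SE 0.14, adjusted p = 0.0128), with 7 and 5 arrays below every control. A second bright probe set fell by 0.72 and 0.73, whereas the other two were near 0.

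Sqle, squalene epoxidase, gave signals of 8.40, 10.50 and 11.16 with siKeap1-1, of 7.68, 9.89 and 11.66 with siKeap1-2, against 10.62, 11.51 and 12.33 with siControl. Among siKeap1-2 mice the highest array was 15.9 times the lowest. The gene fell with siKeap1-2 (-1.59, SE 0.48, adjusted p = 0.0448 in limma) and had -1.24 (SE 0.48, adjusted p = 0.107) with siKeap1-1.

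Lss closes the squalene chain into lanosterol. It was measured at 9.98, 10.98 and 11.75 with siKeap1-1, at 9.63, 10.92 and 11.77 with siKeap1-2, and at 11.48, 11.83 and 12.39 with siControl. Lss fell with both siRNAs, to 47.9% (-1.06, SE 0.33, adjusted p = 0.0393 in limma) and 46.1% of siControl (-1.12, SE 0.33, adjusted p = 0.038), and its 3 probe sets gave differences between -1.04 and -1.17.

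Cyp51, the lanosterol demethylase, ranged over 10.49, 11.68 and 12.07 with siKeap1-1, 9.66, 11.43 and 12.42 with siKeap1-2, and 11.71, 12.42 and 12.88 with siControl. It fell with siKeap1-2 (-1.03, SE 0.31, adjusted p = 0.0468 in limma) and was at -0.88 (SE 0.31, adjusted p = 0.0762) with siKeap1-1. Tm7sf2, a sterol reductase of the next step, was at -0.19 (adjusted p = 0.403) and -0.22 (adjusted p = 0.328) and was not called.

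Msmo1, Nsdhl and Hsd17b7 together remove the methyl groups of lanosterol. Msmo1, the oxidase of this trio, stood at 9.99, 11.06 and 12.02 with siKeap1-1, at 9.69, 11.21 and 11.98 with siKeap1-2, and at 11.51, 12.36 and 12.86 with siControl. It fell by 1.01 with siKeap1-1 (SE 0.32, adjusted p = 0.0466 in limma) and by 1.18 with siKeap1-2 (SE 0.32, adjusted p = 0.0268). Nsdhl, the dehydrogenase, had wider treated groups, with 8.81, 10.43 and 11.37 for siKeap1-1 and 8.46, 10.05 and 11.68 for siKeap1-2, against 10.86, 11.16 and 11.70 for siControl. Its mean differences of -0.93 (SE 0.44, adjusted p = 0.191) and -1.12 (SE 0.44, adjusted p = 0.125) were as large as those of called genes and did not pass the test. Hsd17b7, the reductase, gave 12.64, 12.98 and 13.33 with siKeap1-1, 12.53, 12.93 and 13.34 with siKeap1-2, and 13.07, 13.33 and 13.50 with siControl. It fell with siKeap1-2 (-0.38, SE 0.12, adjusted p = 0.0489) and was at -0.31 (SE 0.12, adjusted p = 0.0987) with siKeap1-1. A second Hsd17b7 probe set gave -0.54 with siKeap1-1 and -0.74 with siKeap1-2, and its dimmer ones lay between -0.15 and -0.06.

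Of the last steps, Ebp, the sterol isomerase, showed the smallest differences of the sterol enzymes (-0.14 and -0.09) and was not called. Sc5d, the sterol desaturase, lay at 12.05, 12.35 and 13.05 with siKeap1-1, at 12.12, 12.64 and 13.24 with siKeap1-2, and at 12.80, 13.27 and 13.52 with siControl. It fell with siKeap1-1 (-0.68, SE 0.19, adjusted p = 0.0211 in limma) and was at -0.53 (SE 0.19, adjusted p = 0.0863) with siKeap1-2. A second Sc5d probe set fell with both siRNAs (-1.39 and -1.26) and was called over all probe sets (adjusted p = 0.00426 and 0.0129).

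Dhcr7, the reductase that finishes cholesterol, separated into levels with an empty stretch between them. Its siKeap1-1 arrays gave 11.78, 12.34 and 13.20, its siKeap1-2 arrays 11.51, 12.24 and 12.88, and its siControl arrays 12.76, 12.95 and 13.28. In siKeap1-1 livers 4 arrays lay at 11.93 or below and 4 at 12.75 or above, and in siKeap1-2 livers 4 lay at 11.78 or below and 4 at 12.69 or above. The means differed by -0.60 (SE 0.24, adjusted p = 0.12 in limma) and -0.77 (SE 0.24, adjusted p = 0.0524) and were not called.

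**Figure D2:**
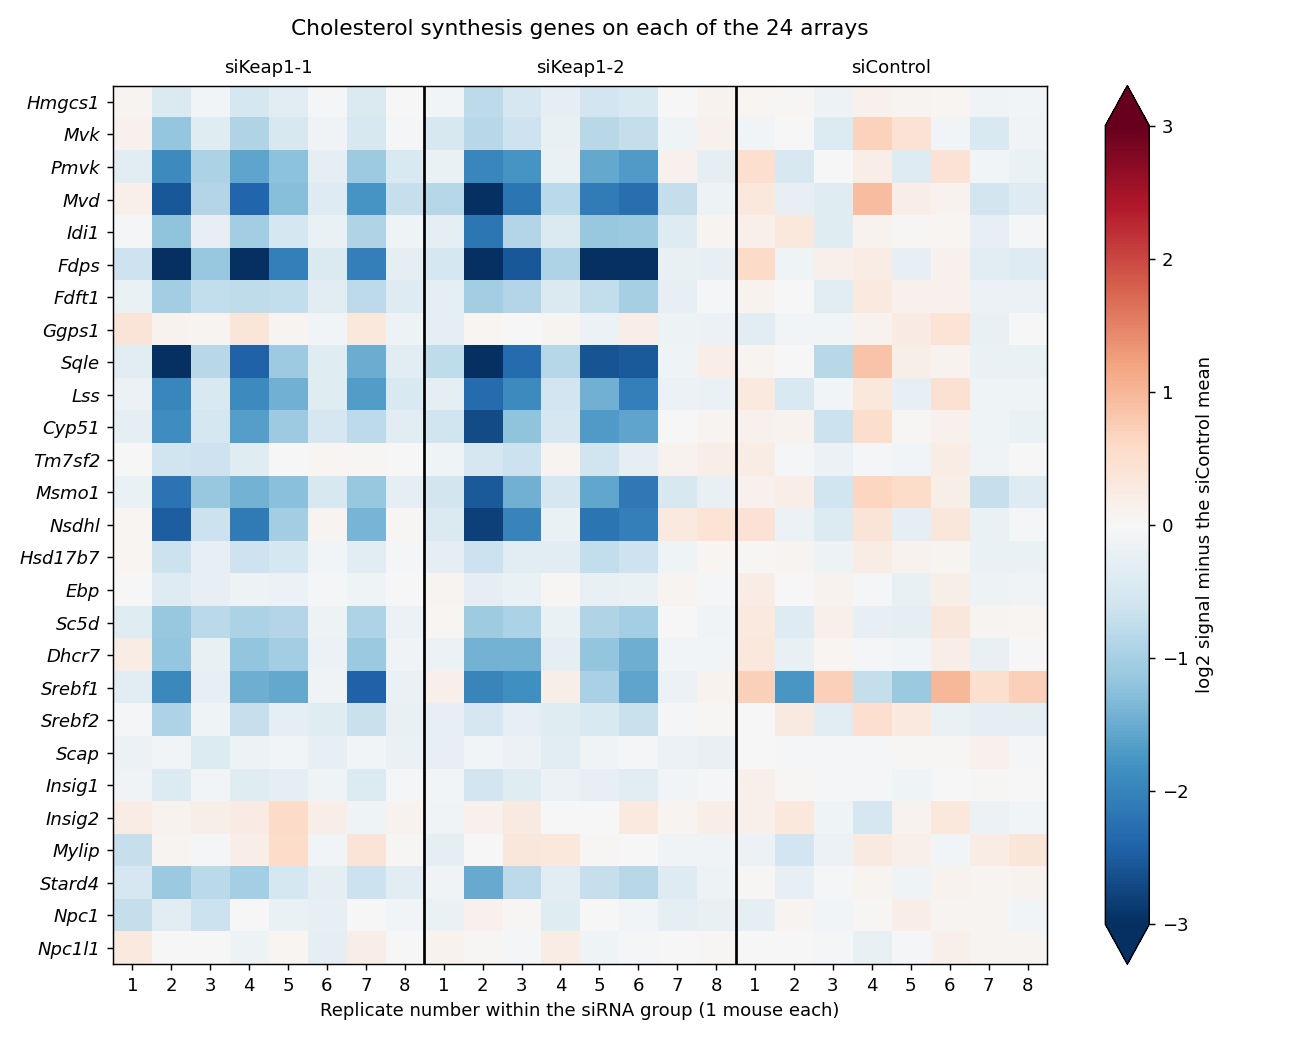
Log2 signal of the 27 measured genes (rows) on each of the 24 arrays (columns, replicates 1 to 8 of siKeap1-1, siKeap1-2 and siControl), as the difference from the siControl mean of the gene, with blue for lower and red for higher values. Replicates 2, 4, 5 and 7 of siKeap1-1 and replicates 2, 3, 5 and 6 of siKeap1-2 form dark columns through the pathway, while Ggps1, Insig2, Mylip and Npc1l1 stay pale.

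Across the enzymes the low arrays were mostly the same mice. Within siKeap1-1, replicates 2, 4, 5 and 7 were the 4 lowest arrays for 16 of the 27 genes, including 14 enzymes, Srebf1 and Insig1. Within siKeap1-2, replicates 2, 3, 5 and 6 were the 4 lowest for 20 of the 27. No set of 4 siControl arrays was lowest for more than 4 genes. The widest gap between neighbouring arrays lay just above that foursome for 12 genes with siKeap1-2 (Pmvk, Mvd, Fdps, Fdft1, Sqle, Lss, Msmo1, Nsdhl, Ebp, Sc5d, Dhcr7 and Srebf1) and for 5 with siKeap1-1 (Hmgcs1, Lss, Dhcr7, Srebf1 and Insig1), while for another 7 genes with siKeap1-1 it lay above replicates 2 and 4 alone. These orders and gaps were counted over the 27 genes alone. The share of all genes with the same lowest arrays was not counted, so the pattern is not shown to be particular to this pathway. Whether the low arrays are mice of a single feeding state was not tested, because the labels do not give it.

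In siKeap1-1 livers 19 of the 27 genes had at least 4 of 8 arrays below the lowest siControl array, and in siKeap1-2 livers 20 had, against 10.3% and 10.5% of all genes. Scap and Stard4 had all 8 siKeap1-1 arrays below every control, and 0 genes of the set had all 8 siKeap1-2 arrays there. For Scap the highest siKeap1-1 array, at 11.406, lay just under the lowest control, at 11.413. The share of all genes with all 8 arrays below was not counted. At the upper end, 24 genes with siKeap1-1 and 26 with siKeap1-2 had no array above the highest control, against 47.1% and 54.9% of all genes.

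**Figure D3:**
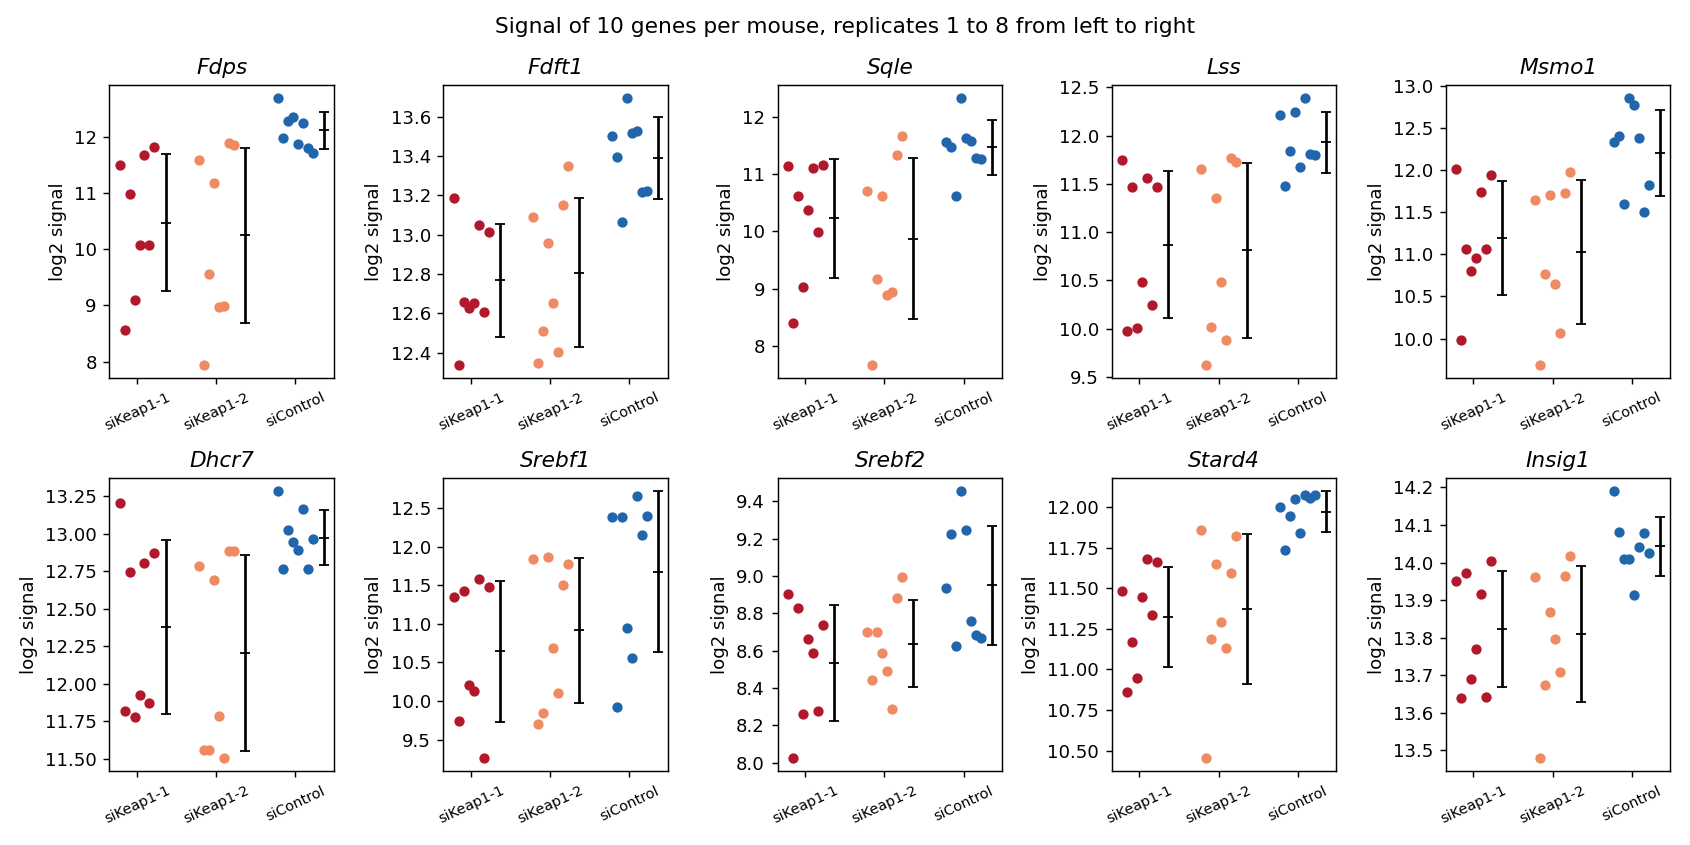
Log2 signal of 10 genes in each mouse (points, replicates 1 to 8 from left to right within a group), with mean and SD per group (n = 8). Dhcr7 and Lss leave a gap between a lower and an upper set of treated arrays, Stard4 has every siKeap1-1 array below the siControl arrays, and Srebf1 is split in all 3 groups.

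The spread itself was compared by fitting limma to the distance of each array from its group mean. The split of the treated arrays was known before this test was chosen. The p-values therefore describe that split and are not fresh evidence for it. With siKeap1-1 the spread of Dhcr7 was larger than with siControl, making it 1 of 2 genes on the whole array called so (0.011% of all genes). The SD of Dhcr7 was 0.58 with siKeap1-1, 0.65 with siKeap1-2 and 0.18 with siControl, and the mean distance differed by 0.42 (SE 0.061, adjusted p = 0.00363) with siKeap1-1 and by 0.50 (SE 0.061, adjusted p = 0.000344) with siKeap1-2. With siKeap1-2, 3 of the 27 genes were called (Dhcr7, Fdps and Lss), of 4 genes in all (0.022%). Fdps had an SD of 1.56 with siKeap1-2 and 0.33 with siControl (difference 1.19, SE 0.21, adjusted p = 0.0328), and Lss 0.91 and 0.32 (difference 0.59, SE 0.10, adjusted p = 0.0233). The remaining called gene was Igfals with either siRNA, a liver-secreted binding protein of insulin-like growth factors. A smaller spread was called for 1 gene with siKeap1-1 and 5 with siKeap1-2, none of them in the set. Against siControl replicates 1 to 3 alone no gene was called for a larger spread with either siRNA. At an unadjusted p under 0.05, 3 of the 27 were then wider with siKeap1-1 and 8 with siKeap1-2, against 4.49% and 2.73% of all genes. Against replicates 4 to 8 Dhcr7 alone of the 27 was called with either. An SD over 1.5 times that of siControl was found for 17 of the 27 genes with each siRNA, where 18.8% and 13.7% of all genes had such an SD.

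**Figure D4:**
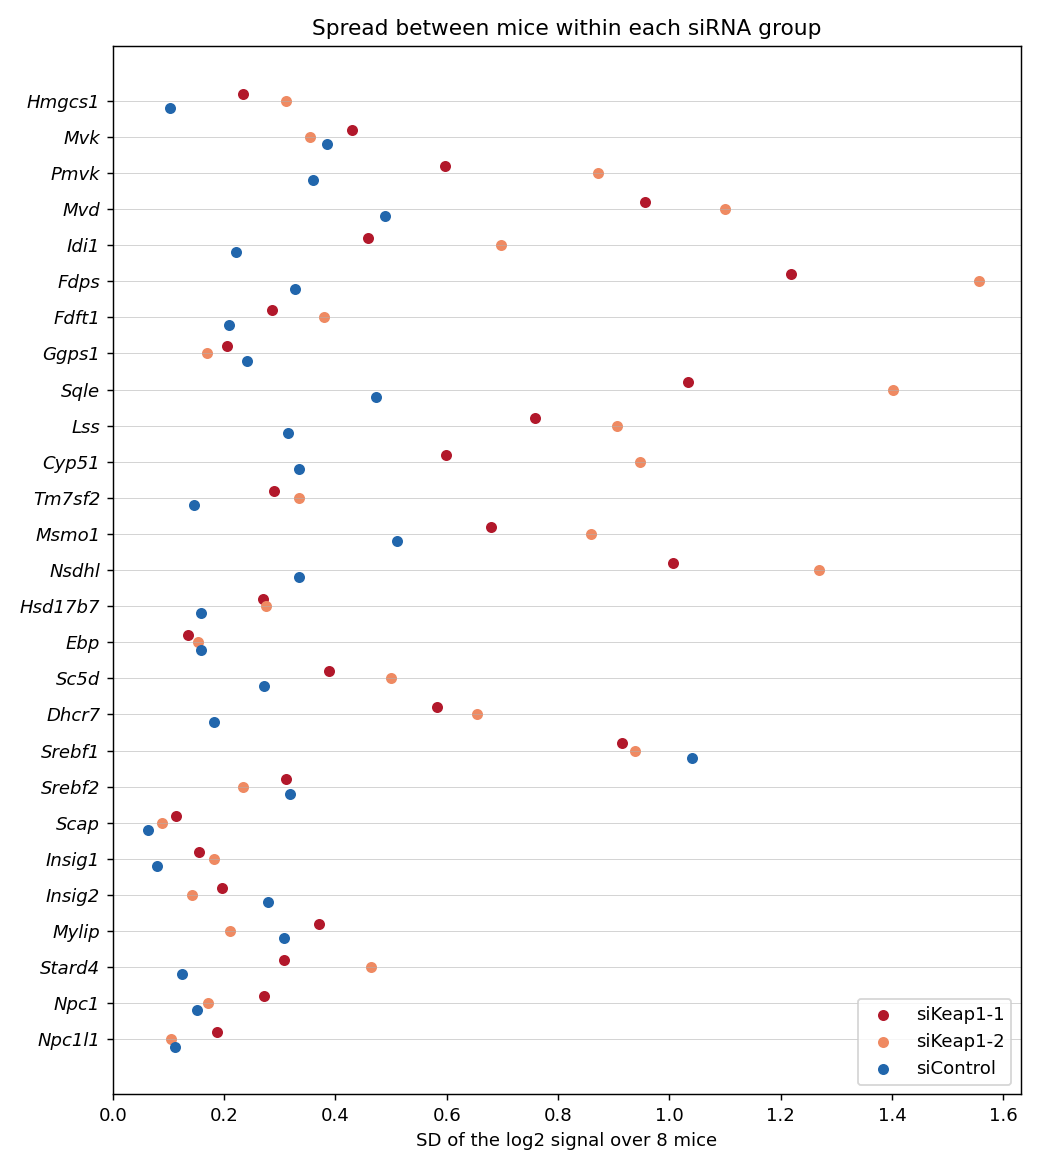
SD of the log2 signal over the 8 mice of each group for the 27 measured genes (rows), with siKeap1-1 in dark red, siKeap1-2 in orange and siControl in blue. The treated SDs of Fdps, Sqle, Nsdhl, Mvd, Lss and Dhcr7 lie right of the control SDs, whereas Srebf1 has an SD of 0.92, 0.94 and 1.04 in siKeap1-1, siKeap1-2 and siControl livers.

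Among the regulators, Srebf2 was at 8.03 to 8.90 with siKeap1-1, at 8.29 to 8.996 with siKeap1-2 and at 8.63 to 9.45 with siControl. Its differences of -0.41 (adjusted p = 0.0569 in limma) and -0.31 (adjusted p = 0.18) were not called. Srebf1 gave 9.26, 10.78 and 11.58 with siKeap1-1, 9.71, 11.10 and 11.87 with siKeap1-2, and 9.93, 12.27 and 12.66 with siControl. The mean differences of -1.03 (SE 0.45, adjusted p = 0.15) and -0.76 (SE 0.45, adjusted p = 0.333) were not called, and the control arrays were as widely spread as the treated ones.

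In siControl livers Srebf1 was low in replicates 2, 4 and 5, at 10.95 or below, and at 12.15 or above in the other 5. Those 3 control arrays were the highest of their group for Mvk, Msmo1, Hsd17b7 and Srebf2, and the lowest for Sc5d. In the treated groups the arrays with the lowest Srebf1 were the same 4 that were lowest for most enzymes. How these patterns relate to feeding was not tested.

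Scap, the escort of SREBP, had a narrow range and a small difference, with 11.07, 11.32 and 11.41 in siKeap1-1 livers, 11.17, 11.30 and 11.43 in siKeap1-2 livers, and 11.41, 11.47 and 11.61 in siControl livers. It fell with siKeap1-1 (-0.18, SE 0.054, adjusted p = 0.0326 in limma) and was at -0.17 (SE 0.054, adjusted p = 0.0526) with siKeap1-2. A dimmer second probe set of Scap gave 0.29 and 0.07, neither called. Unlike the enzymes, Scap was not lowest in the same mice: its 4 lowest arrays were replicates 1, 3, 6 and 8 with siKeap1-1.

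Insig1, which retains SREBP in the endoplasmic reticulum and is itself an SREBP target, lay at 13.64 to 14.00 with siKeap1-1, 13.48 to 14.02 with siKeap1-2 and 13.91 to 14.19 with siControl, and its differences of -0.22 and -0.23 were not called (adjusted p = 0.062 and 0.0586 in limma). Insig2, its relative that is not driven by SREBP in the same way, had differences of 0.19 and 0.11, also not called, and its 2 other probe sets 0.27 to 0.47. Mylip, a ligase that marks lipoprotein receptors for degradation, was at 0.05 and 0.03.

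Stard4, a carrier that moves sterol between membranes, had signals of 10.86, 11.39 and 11.68 with siKeap1-1, of 10.46, 11.44 and 11.86 with siKeap1-2, against 11.74, 12.03 and 12.08 with siControl. It fell with both siRNAs, to 63.8% (-0.65, SE 0.16, adjusted p = 0.00843 in limma) and 66.0% of siControl (-0.60, SE 0.16, adjusted p = 0.0192). A second probe set fell by 1.01 and 0.96 and the last gave 0.03 and 0.13. Npc1, which exports cholesterol from lysosomes, was at -0.28 (adjusted p = 0.0784) and -0.13 (adjusted p = 0.499). Npc1l1, the sterol uptake protein of gut and bile canaliculi, gave 2.41 to 3.02 over all arrays, at the dim end of the signals, with differences of 0.01 and 0.03.

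Between siKeap1-1 and siKeap1-2 0 of the 27 genes were called in limma, against 0.126% of all genes lower and 0.132% higher with siKeap1-1. At an unadjusted p under 0.05 it was also 0, against 2.96% of all genes lower and 6.33% higher. The estimates ranged from -0.27 for Srebf1 (95% confidence interval -1.19 to 0.65) to 0.35 for Sqle (-0.64 to 1.35), so the intervals of the widely spread genes hold sizeable differences. For Fdft1 the interval was -0.33 to 0.25, and for Scap -0.12 to 0.10. Keap1 itself was lower with siKeap1-1 than with siKeap1-2 (-0.76, SE 0.11, adjusted p = 0.00089).

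Genes around the pathway were counted from lists chosen for their role. Of 8 measured sterol enzymes and cofactors outside the set, 2 were lower with each siRNA (medians -0.29 with siKeap1-1 and -0.34 with siKeap1-2), and they were the same 2. Lbr, a second sterol reductase of the step of Tm7sf2, fell by 0.45 and 0.46 (SE 0.11 each, adjusted p = 0.00696 and 0.00823 in limma), and Erg28, a scaffold of the demethylating enzymes, by 0.38 and 0.45 (SE 0.11 each, adjusted p = 0.0339 and 0.016). Of 10 measured genes of SREBP processing and sterol-regulated degradation, 2 were lower with siKeap1-1 and 0 with siKeap1-2 (medians -0.09 and -0.07). These were Mbtps1, the site-1 protease of SREBP (-0.18, adjusted p = 0.0322), and Rnf145, a ligase of sterol-regulated degradation (-0.50, adjusted p = 0.0283). At an unadjusted p under 0.05 the list had 3 lower with siKeap1-1 and 0 lower with siKeap1-2, against 12% and 12.7% of all genes, and 1 (Rnf139) higher with each, against 12.5% and 9.24%. Of the 9 measured on the isoprenoid branches, 0 were called in limma with either siRNA (medians 0.08 and 0.03). There, 2 with siKeap1-1 and 0 with siKeap1-2 were higher at an unadjusted p under 0.05, against 12.5% and 9.24% of all genes.

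Among 9 measured genes of sterol sensing, esterification and export, 2 were higher with each siRNA and none lower (medians -0.06 and 0.01). The share of all genes called higher was 4.96% with siKeap1-1 and 2.97% with siKeap1-2. Abcg5 and Abcg8, the partners of the pump that moves sterol into bile, rose by 0.46 and 0.43 (SE 0.076 each, adjusted p = 0.000264 and 0.000931 in limma) and by 0.59 and 0.54 (SE 0.13 each, adjusted p = 0.00431 and 0.012). Abcg5 lay at 12.85, 13.18 and 13.39 with siKeap1-1, at 12.94, 13.16 and 13.20 with siKeap1-2, and at 12.52, 12.65 and 12.94 with siControl. Of 14 SREBP1 targets of fatty acid synthesis, 5 were lower with siKeap1-1 and 3 with siKeap1-2, against 4.84% and 4.02% of all genes. Their medians were -0.46 and -0.42. Those called with both were Pnpla3, a lipid droplet protein (-1.87, SE 0.58, adjusted p = 0.0408, and -1.93, SE 0.58, adjusted p = 0.0448), Elovl6, a fatty acid elongase (-1.13, SE 0.30, adjusted p = 0.0154, and -1.01, SE 0.30, adjusted p = 0.0383), and Fads1, a fatty acid desaturase (-1.06, SE 0.16, adjusted p = 5.93e-05, and -0.75, SE 0.16, adjusted p = 0.00369). Pnpla3 was dim and spread widely in siControl, at 5.23 to 10.28. Its treated arrays lay at 5.41 to 7.31 with siKeap1-1 and 5.29 to 7.04 with siKeap1-2, none below the lowest control.

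Promoters were read because many of the enzymes were lowest in the same mice. The RefSeq table (GRCm38.p6, 250 bases before to 50 after each start) held 23 of the 28 genes, with 31 promoters. Fdps, Fdft1, Sqle, Stard4 and Npc1 had no promoter there. Both strands were searched for CCAAT, the box bound by NF-Y, a factor that works beside SREBP at sterol genes. It was found in the promoters of 21 of the 23 genes (91.3%), against 41.1% of all 27025 genes in the table, and in 71.0% of the 31 promoters against 37.4% of all 32851. Among the 21 were Ggps1, Insig2, Mylip and Npc1l1, which were not called with either siRNA. The GC box GGGCGG, a binding sequence of Sp1, was in 77.4% of the 31 against 35.7% of all. The sterol element in the spelling TCACNCCA was in the promoters of Hmgcs1, Msmo1 and Srebf2 (9.68% of promoters against 4.36%), and its longer form TCACNCCAC, which contains the shorter, in that of Hmgcs1 alone. The core bound by Nrf2, TGACNNNGC, was in 12.9% against 12.4%, in Dhcr7, Hsd17b7, Mvk and Pmvk. Such matches are counts of letters and show no binding.

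The 250 bases upstream are shown for Hmgcs1, the gene with the longer sterol element, and for Lss and Dhcr7, whose treated arrays were called for a larger spread with siKeap1-2. Each reads 5′ to 3′ on the plus strand up to the base before the start, and capitals mark CCAAT, its reverse complement ATTGG and the sterol element. For Dhcr7 the table has 3 starts, and the one shown is the start whose upstream bases hold the box. In the Hmgcs1 stretch (chr13:119690101-119690350) the sterol element begins 137 bases before the start, between ATTGG matches. The Lss stretch (chr10:76531355-76531604) has a single match at 62 bases, and the Dhcr7 stretch (chr7:143829964-143830213) matches in opposite orientation at 85 and 49 bases.
Hmgcs1: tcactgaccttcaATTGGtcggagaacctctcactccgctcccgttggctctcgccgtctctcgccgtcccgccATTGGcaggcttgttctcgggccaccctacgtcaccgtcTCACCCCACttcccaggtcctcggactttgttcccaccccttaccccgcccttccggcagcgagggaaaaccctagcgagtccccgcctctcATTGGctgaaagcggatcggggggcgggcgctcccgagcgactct
Lss: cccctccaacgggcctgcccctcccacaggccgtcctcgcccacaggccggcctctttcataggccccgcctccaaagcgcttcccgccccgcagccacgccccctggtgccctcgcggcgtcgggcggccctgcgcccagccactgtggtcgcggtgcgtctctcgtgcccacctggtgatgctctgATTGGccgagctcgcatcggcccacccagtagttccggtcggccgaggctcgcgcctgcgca
Dhcr7: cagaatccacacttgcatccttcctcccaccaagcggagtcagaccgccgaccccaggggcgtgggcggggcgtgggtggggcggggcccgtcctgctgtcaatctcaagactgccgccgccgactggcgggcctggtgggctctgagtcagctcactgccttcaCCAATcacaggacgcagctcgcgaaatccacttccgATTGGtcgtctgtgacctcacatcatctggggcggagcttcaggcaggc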

How the data were processed

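Liver RNA of 24 mice was profiled on Affymetrix whole-genome mouse arrays, 1 per mouse and 8 per siRNA, with groups and replicate numbers from the sample labels. The authors deposited log2 signals made with RMA, a method that subtracts background, equalises the distributions of the arrays and condenses the probes of each probe set. The RMA version was not given in the sources used here. RMA draws low signals together, and the number of arrays limits the precision. Of 45101 probe sets, 64 controls were left out. The platform annotation names 1 gene for 34945 of the 45037 tested, several for 932 and none for 9160. The brightest single-gene probe set stood for each of 18193 genes, without a filter on dim signals. A single limma fit (3.58.1, R 4.3.3; lmFit, eBayes) of the 3 groups gave differences, standard errors, 95% confidence intervals and p-values, with Benjamini-Hochberg adjustment over genes, or over all probe sets for a second probe set. Spread was tested by the same fit on absolute deviations from the group mean, scaled for n = 8. Both procedures were tested on simulated data with independent normal noise around a single level per group. Those data lack the separated levels that many genes share in these arrays. They therefore do not show how the tests behave in that setting.

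The genes, lists and tests were chosen with earlier results of these data known. All 28 genes are accounted for; full values are given for genes called against siControl and the 4 with the largest differences among the rest (Nsdhl, Srebf1, Dhcr7 and Mvk), and of each other list up to 3 called genes. Alternatives covered normalization, dim genes, probe set choice, arrays in the fit, the replicate number, array weights, moderation and thresholds; those on 18S, on subsets of controls and on the genes in the fit were added after seeing the data. Mice of both feeding states are pooled within each group, and the feeding factor of the study's own two-way analysis was not used. Promoter sequences come from RefSeq (GRCm38.p6). Plots used matplotlib 3.10.9 (Python 3.11.15).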

Additional observations from a re-analysis of the deposited data

How the results depend on the processing

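The counts of genes called lower moved with the threshold, the 18S covariate and the control arrays, and no gene was called higher under any alternative. With siKeap1-1, where 7 genes were called, the count was 11 without dim genes, 4 with array weights, 4 at a fold over 2 with an unadjusted p under 0.01, and 14 at an adjusted p under 0.1. With siKeap1-2, where 10 were called, it was 6 and 16 at these last thresholds. The alternatives added after seeing the data gave 0 and 0 with the 18S covariate, 0 and 0 against siControl replicates 1 to 3, which leaves fewer controls, and 2 (Fdft1 and Stard4) and 4 (Mvd, Fdft1, Msmo1 and Stard4) against replicates 4 to 8. The cause of these changes was not tested. Fewer of all genes were also called with the 18S covariate and against replicates 1 to 3, as given above. For the other settings, here and below, no count of all genes stands beside these counts. They therefore do not show a change particular to the set. All other settings stayed within 1.5 times the main counts, and the siRNAs differed for 0 genes under each setting run. For the single genes described in full, 310 values under the planned settings and 90 under the added ones kept their direction and their side of the threshold, 30 and 45 lost the call, and 33 and 1 gained it. The kept values include genes that were not called in the main fit and stayed so, and are not a count of calls that held. Genes called in the main fit were called in 6 of 15 alternatives (Hsd17b7 with siKeap1-2) up to 13 of 15 (Msmo1 and Mvd with siKeap1-2). Scap reversed with siKeap1-1 when the mean over its probe sets was taken (0.054), since its second probe set has the opposite sign.

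The larger spread called for 1 gene with siKeap1-1 and 3 with siKeap1-2 became 0 and 0 against siControl replicates 1 to 3. With siKeap1-2 it was 1 around the group median and 1 against replicates 4 to 8. With the replicate number as a block (replicate block), which spreads a deviation over the same-numbered arrays of all groups, it was 0 and 0. The replicate block gave 9 and 12 genes called lower. Same-numbered arrays did not steadily deviate together (correlations -0.23 to 0.35, over 0.1 in 12 of 24 pairs, and 4 best with their own number). These values do not show that the numbers are a pairing.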
